A study of Mus musculus with 6 samples.

Results

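The genes described here encode the myosins, the actin-based motors, together with their light chains and the kinases that phosphorylate them. They were chosen by symbol alone, as every gene named Myh, Myl or Myo with a number, or Mylk, and 52 of the 19938 genes measured matched. Of these, 13 were heavy chains, 24 unconventional myosins, 11 light chains and 4 light chain kinases. Myh7b and Mylpf have symbols outside the pattern and were not counted.

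RNA co-precipitated with Staufen2, a double-stranded RNA-binding protein, was compared with input RNA of the same kind of cell. The Staufen2 pulldown group held 3 arrays of RNA captured from cytoplasmic lysate with an antibody against the endogenous protein. The input group held 3 arrays of total RNA. Both groups came from differentiated murine podocytes of an immortalized line without further treatment, and each array was labelled from 100 ng of RNA. Since equal amounts of RNA were labelled, the values describe the composition of each RNA sample, not how much was captured. A capture with an unrelated antibody was not analysed here, so a higher value is not binding to Staufen2 as such. The pulldown RNA came from cytoplasmic lysate and the input was total RNA, so capture and source cannot be told apart. Nothing in the labels says that the replicates were separate cultures, so p-values cover only the spread between these arrays.

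Values are log2 expression values per probe set, and a difference is pulldown minus input on that scale, so that 1 is a doubling. Pearson correlations over the full table ranged from 0.998 to 0.999 for arrays of the same group, and from 0.982 to 0.983 for a pulldown with an input array. The median of all probe sets, 6.54, served as a rough line below which signal can be background. Of 14 podocyte markers 11 were measured, and 7 lay above that line in the group where they were higher, among them Wt1, Synpo, Cd2ap and Actn4. Plce1 did so only in the pulldown (6.72, against 6.06 in the input). Nphs1, Podxl, Ptpro and Tcf21 did not lie above the line. A gene was called at a limma adjusted p under 0.05. By that rule 48.7% of all genes were called, which divides into 31.3% higher in the pulldown and 17.3% lower. Among the 12156 genes above the median line 45.9% were higher and 26.8% lower. More genes in all were thus called higher than lower, and the counts for the myosins are to be read against those shares. Of the 11 podocyte markers 7 (63.6%) were called higher and none lower, with a median difference of 0.32.

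A conventional myosin (myosin II) consists of a pair of long heavy chains, each with a motor head and a coiled-coil tail, and each carries an essential and a regulatory light chain at its neck. Phosphorylation of the regulatory light chain switches nonmuscle and smooth muscle myosin II on and lets it assemble into contractile filaments. Unconventional myosins work as single motors or dimers that tether membranes, move organelles or build protrusions. In podocytes, myosin II belongs to the contractile apparatus of the cell body and the major processes, and inherited defects of MYH9 and MYO1E are known to cause glomerular disease in humans.

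Among the myosin genes with clear signal, the long motor subunits were higher in the pulldown and nearly all of the small light chains were lower. Of the 52 genes, 22 lay above the median line in both groups, none in only 1 group and 30 in neither. Among the 22, all 4 heavy chains and all 11 unconventional myosins passed the test as higher, as did the kinase Mylk. Of the 6 light chains above the line, 5 passed as lower and Myl9 did not pass. Median differences were 0.62 for these 4 heavy chains, 0.73 for the 11 unconventional myosins and -0.42 for the 6 light chains, beside 0.09 for all genes above the line. Over all 52 genes, 21 were called higher, 5 lower and 26 did not pass, and their median was 0.06, beside 0.04 for all genes tested. Calls were thus 40.4% higher and 9.6% lower over all 52, beside 31.3% and 17.3% of all genes, and the classes differed in direction. All pulldown values lay above all input values in 26 of the 52 genes and below them in 6, beside 36.4% and 19.6% of all genes.

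**Figure D1:**
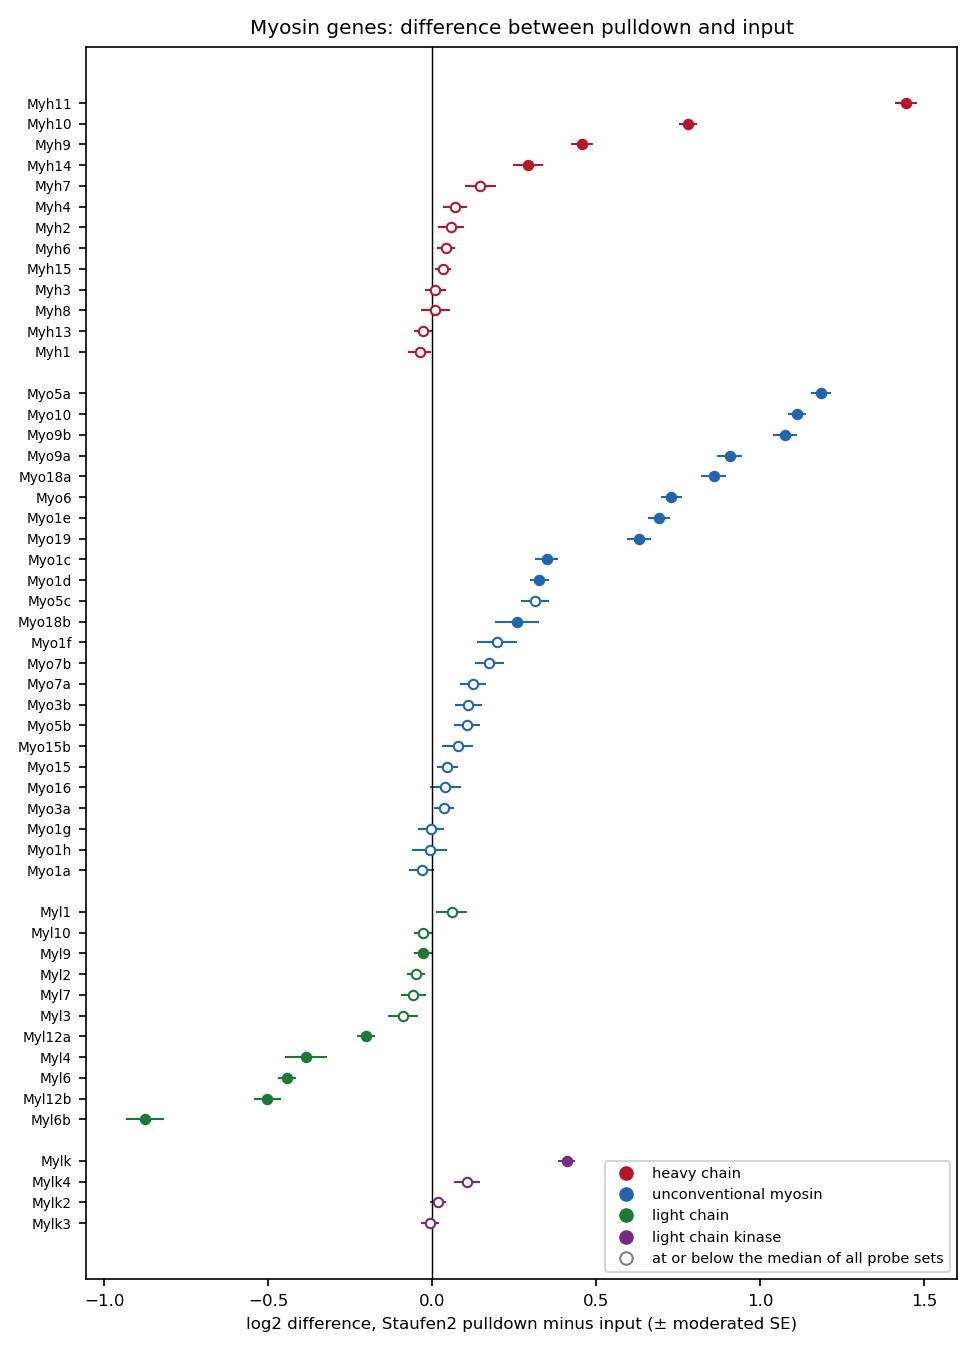
Log2 difference between the Staufen2 pulldown and the input for each of the 52 myosin genes, grouped by class, with moderated SEs as bars; open points are genes under the median line in both groups. Filled heavy chains, unconventional myosins and Mylk lie right of 0, filled light chains lie left of it apart from Myl9, which is close to 0, and most open points lie near 0.

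Among the heavy chains, Myh11 of smooth muscle stood furthest from the input. It read 11.81, 11.76 and 11.85 on the pulldown arrays, against 10.34, 10.39 and 10.35 on the input arrays. The groups were far apart compared with the spread within either. The difference was 1.44 ± 0.034 (SE; limma adjusted p = 2.2e-07), which is 2.72-fold higher, and placed Myh11 at rank 26 from the top of all genes. The other smooth muscle markers differed less or did not pass the test. Acta2, smooth muscle actin, averaged 13.57 ± 0.013 in the pulldown and 13.57 ± 0.0086 in the input (SD, n = 3 each), with a limma adjusted p of 0.97. Of the 7 smooth muscle markers, 6 lay above the median line in the group where they were higher, although Des was close to it (6.60 in the pulldown and 6.48 in the input), and Myocd lay below it. Of the 7, 1 (Smtn, 0.35) was called higher and 1 (Tagln, -0.10) lower. The mean level of the 7 was 10.59 to 10.64 on the pulldown arrays and 10.55 to 10.57 on the input arrays, and their part in the Myh11 value was not tested. None of 5 endothelial markers lay above the line, and of these Tek (0.29) and Kdr (0.22) were called higher and Emcn (-0.26) lower. Of 5 immune markers 2 did, Cd14 (-0.48) and Cd68 (-0.24), both called lower, while Ptprc, Cd3e and Itgam did not. Of 6 tubular markers 4 lay above the line, with Cubn (0.59) and Lrp2 (0.17) called higher and Aqp1 (-0.11) lower. Both groups came from the same kind of cell, so these differences are between RNA captured from cytoplasmic lysate and total RNA of the input. Which cells of the culture made each RNA was not tested.

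The nonmuscle heavy chains Myh10, Myh9 and Myh14 form the motors of contractile filaments in nonmuscle cells. Myh10 (myosin IIB) read 12.78, 12.78 and 12.82 in the pulldown, against 12.03, 12.01 and 12.00 in the input. All pulldown values thus lay above all input values, by many times the spread within a group. Its difference of 0.78 ± 0.027 (limma adjusted p = 4.9e-07) is 1.72-fold.

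Myh9 (myosin IIA) read 12.95, 12.92 and 13.02 in the pulldown, against 12.52, 12.49 and 12.50 in the input. The groups did not overlap, and the difference was 0.46 ± 0.033 (adjusted p = 1.4e-05), or 1.37-fold. A further Myh9 probe set, which the annotation ties to cDNA clones and not to the RefSeq transcript, went the other way. It averaged 6.12 in the pulldown and 7.24 in the input, a difference of -1.12 ± 0.097 (adjusted p = 3.9e-05 over all probe sets with 1 gene symbol). With the mean of both probe sets in place of the brighter, Myh9 stood at -0.33 (adjusted p = 0.00069). The direction given for Myh9 is therefore that of its bright probe set alone, and the cause of the disagreement was not tested.

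Myh14 (myosin IIC) was measured near the lower end, with 7.60, 7.56 and 7.63 in the pulldown against 7.22, 7.39 and 7.29 in the input. The groups did not overlap, and it was higher by 0.29 ± 0.047 (adjusted p = 0.0012). The 9 heavy chains of striated muscle lay at or below the median line in both groups, with means from 4.88 to 6.52 in the pulldown and 4.84 to 6.37 in the input. Among them 1, Myh7 of slow and cardiac muscle, was called higher by 0.15 ± 0.048 (adjusted p = 0.037). That call ended without input array 3 (0.10) and without pulldown array 1 (0.14), 2 (0.14) or 3 (0.17), after cyclic loess normalization (0.10), after centring on bright probe sets (0.11) and in the test against a 1.2-fold change. The other 8, Myh4, Myh2, Myh6, Myh15, Myh3, Myh8, Myh13 and Myh1, had differences within 0.07 of 0 and did not pass. Of 12 markers of skeletal and cardiac muscle, 9 lay above the line, while Tnnc2, Myog and Ttn did not, and 3 were called higher and 2 lower. Acta1, skeletal muscle actin, was higher by 0.86 ± 0.075 (adjusted p = 3.9e-05). Tnnc2 (0.15) and Myod1 (0.14) were also called higher, while Actc1 (-0.20) and Tnnt2 (-0.18) were called lower. The median difference of the 12 was 0.03. The mean level of the 12 was 7.36 to 7.40 on the pulldown arrays and 7.27 to 7.32 on the input arrays, and their part in the Myh7 value was not tested. Several of these heavy chain genes are close copies of each other in sequence, so their single values are uncertain. No heavy chain was called lower by limma, beside 17.3% of all genes. None was lower at an unadjusted limma p under 0.05 (0 genes), a threshold at which all genes were not counted.

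**Figure D2:**
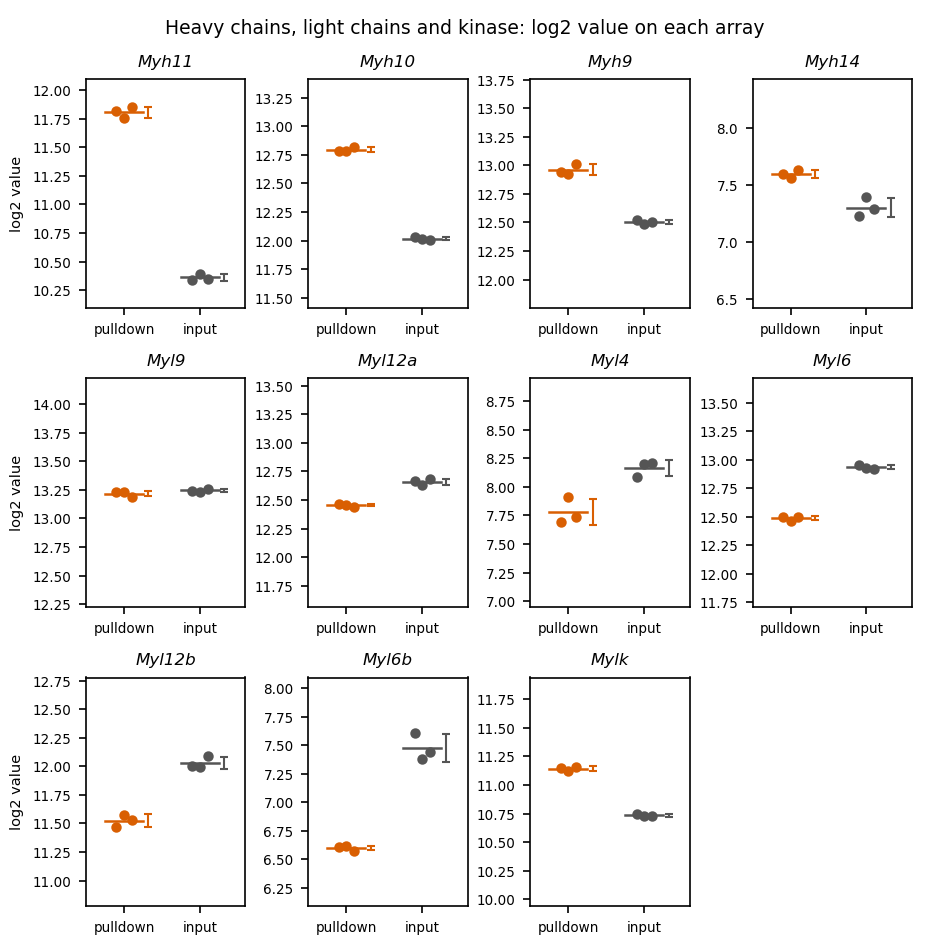
Log2 value on each array for the heavy chains, light chains and kinase above the median of all probe sets, pulldown left and input right, with points for arrays, lines for means and bars for the SD (n = 3); every panel spans 2 log2 units but starts at its own level. The heavy chains and Mylk are higher in the pulldown, the light chains lower, and the groups overlap for Myl9.

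The light chains went the other way. Myl6, the essential light chain of nonmuscle and smooth muscle myosin II, read 12.50, 12.47 and 12.50 in the pulldown, against 12.96, 12.93 and 12.92 in the input. Its groups were separated by far more than their spread, with a difference of -0.44 ± 0.028 (limma adjusted p = 6.0e-06). Myl6 had 5 further probe sets, with the same or nearly the same annotation, and all 6 were lower, between -0.57 and -0.44. Several may read the same RNA and are no separate evidence.

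Myl6b, a related essential light chain, read 6.61, 6.61 and 6.58 in the pulldown, against 7.61, 7.38 and 7.44 in the input. It was the lowest member by difference, at -0.88 ± 0.058 (adjusted p = 8.0e-06), but its pulldown mean of 6.60 lay close to the median line of 6.54, where signal can be background. Myl4, the essential light chain of atrial and embryonic muscle, read 7.69, 7.91 and 7.74 in the pulldown, against 8.09, 8.20 and 8.21 in the input. Both light chains had groups that did not overlap, and Myl4 stood at -0.39 ± 0.064 (adjusted p = 0.0014).

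Of the regulatory light chains, on which the phosphorylation that activates the motor takes place, Myl12b read 11.47, 11.58 and 11.53 in the pulldown, against 12.01, 11.99 and 12.09 in the input. Myl12a read 12.47, 12.46 and 12.44 in the pulldown, against 12.67, 12.63 and 12.68 in the input. Both pairs of groups were separate. Myl12b was lower at -0.50 ± 0.041 (adjusted p = 2.4e-05) and Myl12a at -0.20 ± 0.028 (adjusted p = 0.00051). These genes are near-identical neighbours, so the split of signal between them is uncertain.

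Myl9, the regulatory light chain of smooth muscle and nonmuscle cells, was the exception. It read 13.23, 13.23 and 13.19 in the pulldown, against 13.24, 13.23 and 13.26 in the input, and the groups overlapped. Its difference was -0.03 ± 0.027 (limma adjusted p = 0.44), and after cyclic loess it stood at -0.11 and passed the test (adjusted p = 0.016). The light chains at or below the median line were Myl1, Myl10, Myl2, Myl7 and Myl3 of striated muscle or other tissues. They had differences between -0.09 and 0.06, and none passed the test, although Myl3 (-0.13) did after cyclic loess and, with Myl2 (-0.09), after centring on bright probe sets. No light chain was called higher by limma, beside 31.3% of all genes. None was higher at an unadjusted limma p under 0.05 (0 genes), where all genes were not counted.

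Pairs of members were then compared directly, as the difference between their log2 differences on the same arrays, for 6 pairs. In 5 of them a heavy chain was set against a light chain, and in the other the heavy chains Myh9 and Myh10 against each other. Intervals are t intervals with the variance pooled over the pulldown and input arrays. They assume normal spread, which so few arrays cannot check. Myh9 exceeded Myl12b by 0.96 (95% interval 0.81 to 1.11) and Myl6 by 0.90 (0.84 to 0.96). It exceeded Myl12a by 0.66 (0.56 to 0.76) and Myl9 by 0.48 (0.36 to 0.61). Myh10 exceeded Myl9 by 0.81 (0.72 to 0.89), and Myh9 fell short of Myh10, at -0.32 (-0.37 to -0.27). In every pair the 3 pulldown and 3 input arrays did not overlap, and the 2-sided exact permutation p was 0.1, also adjusted over the pairs, which is the smallest that 3 against 3 arrays can give. The pairs with Myh9 rest on its bright probe set. With the mean of its probe sets the difference from Myl9 was -0.30 and that from Myl12a -0.13, both of the opposite sign. The other Myh9 differences were then 0.18 from Myl6, 0.17 from Myl12b and -1.11 from Myh10.

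Of the light chain kinases, Mylk encodes the calmodulin-dependent kinase of smooth muscle and nonmuscle cells. It read 11.15, 11.12 and 11.16 in the pulldown, against 10.75, 10.73 and 10.72 in the input. The groups did not overlap, and Mylk was higher by 0.41 ± 0.027 (limma adjusted p = 7.7e-06), or 1.33-fold. The kinases of skeletal and cardiac muscle, Mylk2 (0.02) and Mylk3 (-0.01), and Mylk4 (0.11) lay below the median line and did not pass. Mylk4 passed with an intensity trend in the variances (adjusted p = 0.042).

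Of the 24 unconventional myosins 15 (62.5%) were called higher and none lower, beside 31.3% and 17.3% of all genes. At an unadjusted limma p under 0.05, 17 were higher and 0 lower, but all genes were not counted at that threshold. Myo5a, a motor that carries organelles along actin, had the largest difference. It read 11.23, 11.26 and 11.26 in the pulldown, against 10.04, 10.11 and 10.05 in the input, and was higher by 1.19 ± 0.031 (adjusted p = 2.4e-07). Myo10, which works at the tips of filopodia, read 11.36, 11.35 and 11.37 in the pulldown, against 10.24, 10.23 and 10.27 in the input. With a difference of 1.11 ± 0.027 it was 2.16-fold higher (adjusted p = 2.2e-07). For both genes the gap between groups was many times the range within a group.

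Myo9b and Myo9a carry a GTPase-activating domain in their tails. Myo9b read 11.38, 11.34 and 11.36 in the pulldown, against 10.29, 10.22 and 10.34 in the input, a difference of 1.08 ± 0.037 (adjusted p = 4.7e-07). Myo9a read 12.48, 12.55 and 12.48 in the pulldown, against 11.58, 11.55 and 11.66 in the input, and was higher by 0.91 ± 0.039 (adjusted p = 1.1e-06). The pulldown arrays lay above the input arrays for both. Myo9a is covered by 13 probe sets, and all 13 were higher, from 0.69 to 1.41 with a median of 1.14. The brightest one, used here, thus gave a smaller difference than most.

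Myo18a, a motor-like protein of the Golgi and the cytoskeleton, read 9.78, 9.67 and 9.73 in the pulldown, against 8.88, 8.83 and 8.90 in the input. Its difference was 0.86 ± 0.037 (adjusted p = 1.1e-06). Myo6, which moves toward the minus end of actin filaments and serves endocytosis, read 10.96, 10.89 and 10.94 in the pulldown, against 10.18, 10.23 and 10.19 in the input. It was higher by 0.73 ± 0.031 (adjusted p = 1.1e-06), and in neither gene did the groups overlap.

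Among the membrane-binding class I myosins, Myo1e, the podocyte disease gene, read 11.72, 11.70 and 11.80 in the pulldown, against 11.06, 11.04 and 11.05 in the input. Its difference of 0.69 ± 0.033 (adjusted p = 1.8e-06) is 1.62-fold. Its relatives had smaller differences. Myo1c, a motor of exocytosis, read 11.51, 11.43 and 11.53 in the pulldown, against 11.16, 11.14 and 11.12 in the input, a difference of 0.35 ± 0.034 (adjusted p = 7.2e-05). Myo1d, known from left-right patterning in flies and vertebrates, read 11.59, 11.58 and 11.58 in the pulldown, against 11.23, 11.30 and 11.23 in the input. It was higher by 0.33 ± 0.030 (adjusted p = 5.1e-05), and its further probe set was higher by 0.60. All 3 genes had groups that did not overlap, while the differences between them were not tested.

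Myo19, a motor on the outer membrane of mitochondria, read 10.00, 10.00 and 9.94 in the pulldown, against 9.29, 9.35 and 9.40 in the input. It was higher by 0.63 ± 0.037 (adjusted p = 4.8e-06). Myo18b, a relative of Myo18a known from striated muscle, was the least certain of the unconventional myosins above the line. It read 10.94, 11.07 and 10.91 in the pulldown, against 10.77, 10.80 and 10.58 in the input, and the difference was 0.26 ± 0.068 (adjusted p = 0.015). That call ended without pulldown array 2 (0.21, adjusted p = 0.058) and after cyclic loess (0.15, adjusted p = 0.11). Myo18b has 20 probe sets whose input means ran from 5.10 to 10.72. Of these 9 were called higher, none lower and 11 did not pass, and 9 lay above the median line. The value of the bright one is therefore uncertain for the gene.

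**Figure D3:**
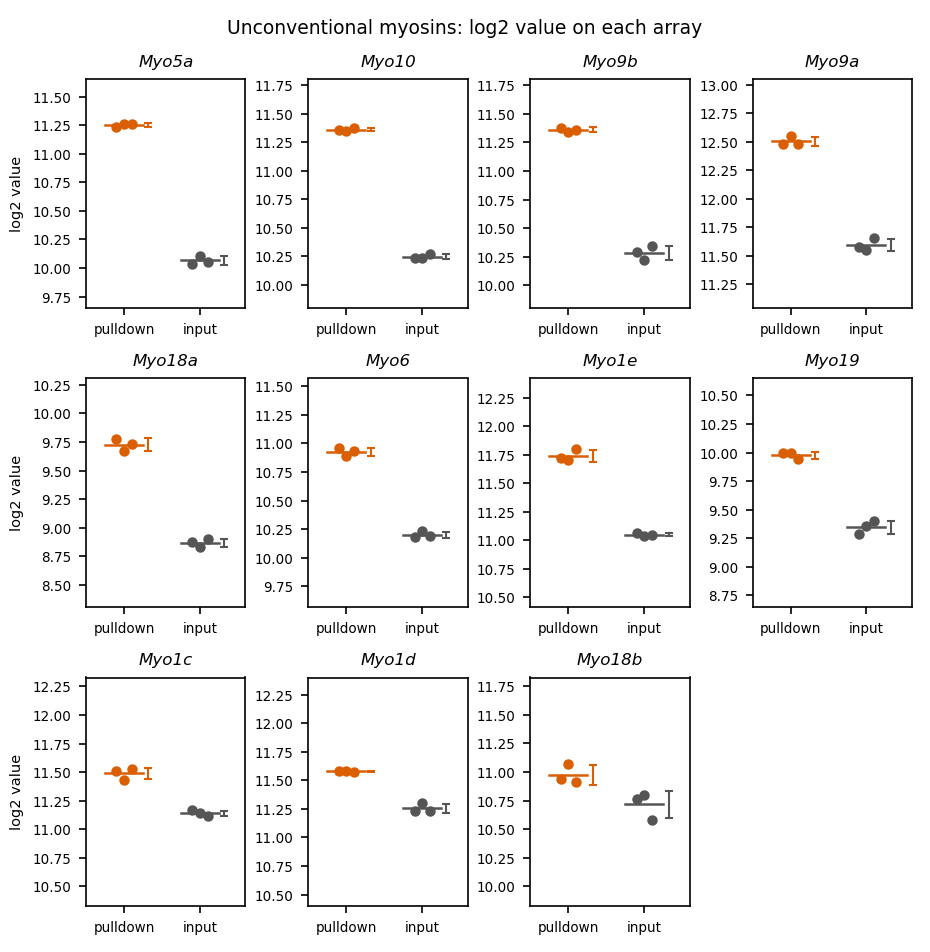
Log2 value on each array for the 11 unconventional myosins above the median of all probe sets, pulldown left and input right, with points for arrays, lines for means and bars for the SD (n = 3); every panel spans 2 log2 units from its own start. Pulldown values lie above input values in all panels, with the narrowest gap between groups for Myo18b.

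The remaining 13 unconventional myosins lay at or below the median line in both groups, with means from 4.69 to 6.39 in the pulldown and 4.65 to 6.28 in the input. Of these, 4 (30.8%) were called higher, a share near the 31.3% of all genes. They were Myo5c (0.31), Myo1f (0.20), Myo7b (0.17) and Myo7a (0.13). Myo5c kept its call when any array was left out, whereas those of the other 3 depended on single arrays. Myo7b lost its call without pulldown array 2 (0.16). Myo1f lost it without input array 2 (0.18) or 3 (0.15) and without pulldown array 1 (0.20) or 2 (0.16). Myo7a lost it without input array 1 (0.11) or 2 (0.12) and without pulldown array 2 (0.12) or 3 (0.10), and also after cyclic loess. Both lost it after centring on bright probe sets as well (0.16 for Myo1f and 0.08 for Myo7a). Myo3b (0.11) and Myo5b (0.11) did not pass but did so without pulldown array 1 (0.14) and without input array 2 (0.14), in that order. Myo15b, Myo15, Myo16, Myo3a, Myo1g, Myo1h and Myo1a had differences between -0.03 and 0.08 and did not pass. At such levels these values say little about RNAs of the hair cell, gut or blood cell myosins in either sample.

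**Figure D4:**
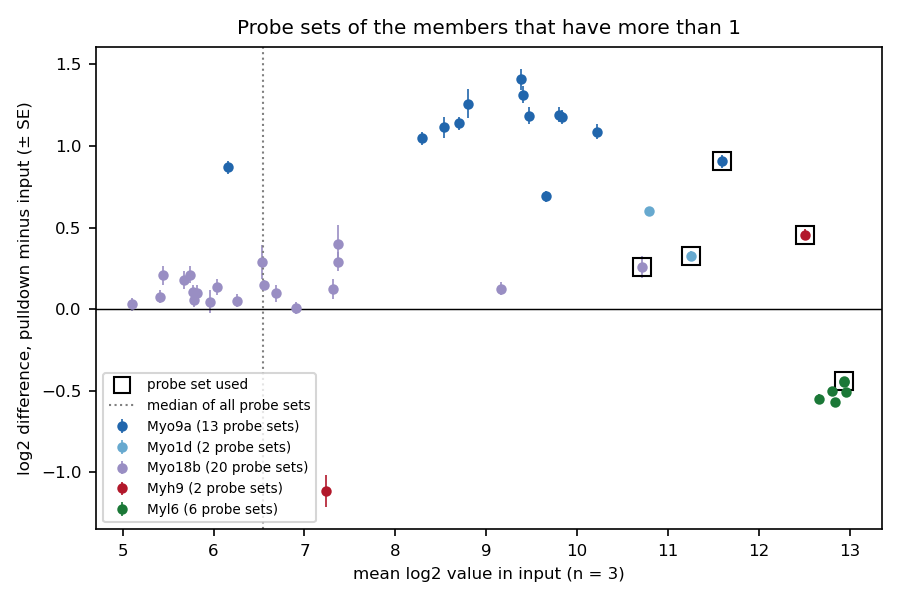
Log2 difference with SE against the mean input level for every probe set of the 5 myosin genes that have more than 1, with squares around the probe set used and a dotted line at the median of all probe sets. All 13 Myo9a probe sets are above 0 and all 6 Myl6 probe sets below it, while those of Myh9 disagree and those of Myo18b spread over a wide range of levels.

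The classes also differ in the size of their genes, which the choice of members did not use. The genomic span, which includes introns and is only a coarse measure of the RNA, had a median of 89.6 kb for the 4 heavy chains above the line, 154 kb for the 11 unconventional myosins and 7.50 kb for the 6 light chains. Across the 22 genes above the line the rank correlation of difference and span was 0.56, and across 11764 coding genes above the line it was 0.48. These are descriptions across genes measured on the same arrays, and no p is given. Class and span went together in these genes, so their parts in the differences cannot be told apart and were not tested. The next genes were picked after their values were seen. Myo1d, with 298 kb, was higher by 0.33, Myo19, with 31.1 kb, by 0.63, and Myl4, with 41.2 kb, was lower at -0.39. Of the coding genes above the line that span over 100 and up to 300 kb, 75.1% were called higher, with a median difference of 0.42. The 10 myosin genes among them had a median of 0.75. Of those that span over 30 and up to 100 kb, 64.4% were called higher, with a median of 0.27. The 6 myosin genes in that range had a median of 0.54. From over 10 up to 30 kb, 40.5% were called higher and 30.1% lower, with a median of 0.05. The 2 myosin genes there were Myo1c (0.35, called higher) and Myl12b (-0.50, called lower), so their median of -0.08 describes neither. Of the coding genes above the line that span up to 10 kb, 47.2% were called lower, with a median of -0.10, and the 4 light chains among them had a median of -0.32.

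**Figure D5:**
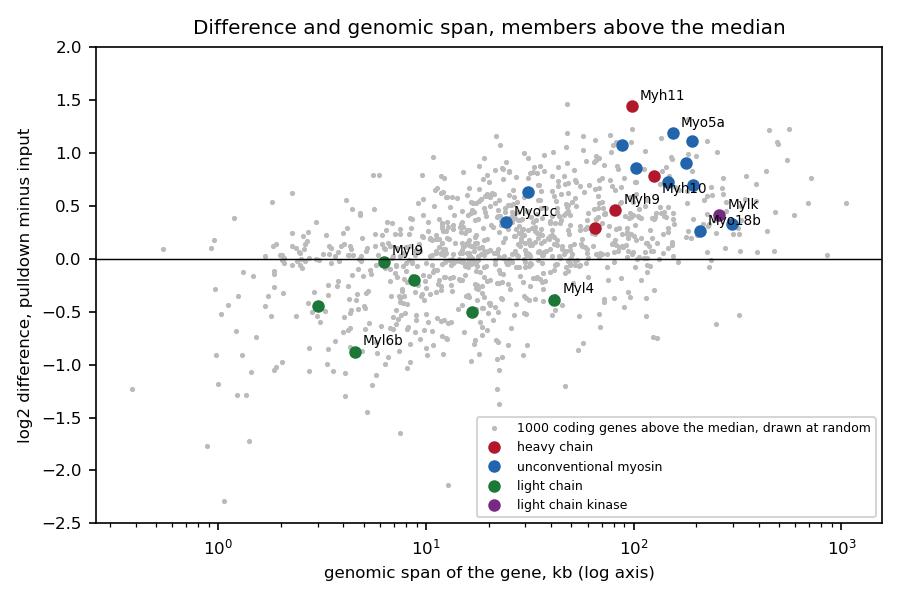
Log2 difference against the genomic span of the gene (log axis, kb) for the 22 myosin genes above the median of all probe sets, coloured by class, over 1000 coding genes above the median drawn at random in grey. Light chains lie at short spans and at or below 0, heavy chains and unconventional myosins at longer spans and above 0.

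Genes that control myosin II were taken from a list of kinases, phosphatase subunits, exchange factors and chaperones. Of 33 measured, 30 of them above the median line, 23 (69.7%) were called higher, 4 (12.1%) lower and 6 did not pass, with a median difference of 0.44. Among all genes above the line 45.9% were called higher and 26.8% lower, with a median of 0.09. The guanine nucleotide exchange factors Arhgef12 and Arhgef11 were higher by 1.21 ± 0.030 and 1.13 ± 0.030. Ect2, an exchange factor needed for cytokinesis, was higher by 1.03 ± 0.027 and the kinase Cdc42bpa (MRCK alpha) by 1.06 ± 0.035. The largest adjusted p of these 4 was 4.6e-07.

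Rock1, a kinase that phosphorylates myosin light chains, averaged 11.14 ± 0.032 in the pulldown and 10.44 ± 0.16 in the input (SD, n = 3 each). It was higher by 0.70 ± 0.073 (adjusted p = 0.00010). Ppp1r12a, the subunit that brings the phosphatase to myosin, was higher by 0.59 ± 0.035, and Unc45a, a chaperone that folds myosin heads, by 0.39 ± 0.047. The catalytic phosphatase subunit Ppp1cb did not pass (0.01, adjusted p = 0.77). The lower members were the death-associated kinase Dapk3 (-0.65), the phosphatase inhibitor Ppp1r14b (-0.56), the GTPase Rhoc (-0.14) and the calmodulin gene Calm2 (-0.14). Ppp1cb and the lower members were chosen after their values were seen.

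The adaptors and cargo partners of unconventional myosins were taken as a further list. Of 25 measured, 22 of them above the line, 11 (44.0%) were called higher, 7 (28.0%) lower and 7 did not pass, with a median of 0.09. These shares are near the 45.9% and 26.8% of all genes above the line, whose median was also 0.09. Rab11fip2, which joins Rab11 vesicles to class V myosins, was higher by 0.95 ± 0.030 and the lipid phosphatase Synj1, a binding partner of Myo1e, by 0.95 ± 0.034. The anchoring protein Akap5 was higher by 1.30 ± 0.067. Calml4, a calmodulin-like light chain of Myo7b, was lower at -0.86 ± 0.046. Adjusted p-values of these 4 were at most 3.0e-06.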

How the data were processed

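The deposited values were log2 expression values, a column per array, made by the authors with RMA. The tools RMA and limma are taken from the submitters' processing notes, their versions being not given in the sources used here. Array medians were 6.53 to 6.54, and each difference is relative to the bulk of RNAs on the array. Of 35556 probe sets, 21789 had 1 symbol in the platform's annotation. The brightest over 6 arrays was used per symbol, which left 19938 genes. Spans came from the RefSeq gene table (GRCm38.p6) through Entrez identifiers, which matched for 19856 genes and all 52 members. The annotation names no build, so no coordinates are given.

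Differences were fitted for all genes with limma 3.58.1 in R 4.3.3 (2-sided, no covariates, Benjamini-Hochberg over all genes). Members and lists were chosen with earlier results of these data known. Any member could be named. Array values were given for those above the median of all probe sets, and other pathway genes were the 4 with the smallest adjusted p per list plus Rock1, Rock2, Ppp1r12a and Unc45a, where measured. Same-numbered arrays deviated together with correlations of 0.024, 0.11 and -0.060, so numbers were not taken as pairs. The alternatives were a replicate block, an intensity trend, centring on probe sets above the 75th percentile, cyclic loess, leaving out dim genes, averaging the probe sets of a gene, array weights, treat against a 1.2-fold change and leaving out each array. The procedure was tested on simulated data. Figures used matplotlib 3.10.9. Only 3 arrays per group limit the precision, with a median SE of 0.039.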

Additional observations from a re-analysis of the deposited data

How the results depend on the processing

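No myosin gene past the test changed direction under any alternative, apart from Myh9 with the mean of its probe sets (-0.33), where 1 heavy chain was therefore called lower. The differences of Myh9 then stood at -0.30 from Myl9 and -0.13 from Myl12a, both reversed, and at 0.18 from Myl6, 0.17 from Myl12b and -1.11 from Myh10. The test against a 1.2-fold change called 3 heavy chains and 8 unconventional myosins higher and 3 light chains lower. It called 2 myosin II regulators lower, and 5 adaptors higher and 3 lower, because it asks for larger differences. Of all genes it called 15.2% higher and 9.14% lower. An intensity trend called 2 kinases higher, beside 31.2% of all genes. Cyclic loess took the share of higher calls among all called genes to 52.9%, against 64.4% as reported. Like centring on bright probe sets, it gave 4 heavy chains and 13 unconventional myosins higher and 7 light chains lower. Of all genes, cyclic loess called 25.7% higher and 22.9% lower, and the centring called 27.1% higher and 21.2% lower. A replicate block left the calls of all 52 genes as they were. It gave 5 heavy chains and 15 unconventional myosins higher and 5 light chains lower. Of all genes it called 31.3% higher and 17.4% lower, and same-numbered arrays share only a number. Leaving out each array gave 4 to 5 heavy chains and 11 to 15 unconventional myosins higher and 5 light chains lower in every case. Of all genes, 28.4% to 29.7% were then called higher and 16% to 16.8% lower. The cause of the Myh9 reversal was not tested. Low signal over background limits the 30 genes at or below the median line.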
